A study of Homo sapiens with 3 samples.

Results

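The genes described here are 6 mucins (MUC1, MUC4, MUC5AC, MUC5B, MUC16 and MUC20), 3 surfactant proteins (SFTPB, SFTPC and SFTPD) and the secretoglobin SCGB1A1. They were taken by gene symbol from 3 RNA-seq libraries, in which 18856 genes are listed at least once. Of the 10 genes, 8 are listed in at least 1 library, and MUC5AC and SFTPC in none. The libraries are LIEA RNA-seq of HBE, LIEA RNA-seq of A549 and HBE Smart-seq2, each from 10 pg of polyA+ mRNA. HBE is a human bronchial epithelial cell line, and A549 is a line of adenocarcinomic human alveolar basal epithelial cells; neither carried a treatment in the labels. LIEA, the low-input method of the study, fragments the mRNA with RNase III, amplifies the cDNA library and is sequenced on Ion Torrent, while Smart-seq2 copies full-length cDNA from an oligo-dT primer, amplifies it and is sequenced on Illumina. There was 1 library per condition, so no difference below has a replicate check or a test, and each compares libraries.

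Mucins are large glycoproteins whose serine- and threonine-rich stretches carry dense O-linked sugars. Secreted mucins such as MUC5AC and MUC5B form the mucus gel of the airways, whereas transmembrane mucins such as MUC1, MUC4 and MUC16 stay on the apical surface of epithelial cells. Surfactant proteins B and C are made by alveolar type 2 cells and spread the lipid film of the alveolus, surfactant protein D is a collectin of innate defence, and SCGB1A1 is the main secreted protein of club cells. In polyA+ mRNA of a culture, fewer cells of a type and less RNA per cell cannot be told apart.

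Levels are given as rpkM, the reads per kilobase of transcript per 1000000 mapped reads, and the number of reads behind each value was recovered from the deposited values. The totals were 4605855 mapped reads for HBE LIEA, 4154060 for A549 LIEA and 9845150 for HBE Smart-seq2. Intervals are at the 95% level (exact Poisson for a level, exact binomial for a ratio) and cover counting error only, since copies from PCR are not separate molecules. A gene that is not listed was taken as without reads. Depth allows such a gene up to 3 reads, which is 0.651 reads per 1000000 in HBE LIEA, 0.722 in A549 LIEA and 0.305 in Smart-seq2. A ratio with such a gene uses this limit and leaves out the counting error of the other library.

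The lines were checked against marker genes. KRT5, a keratin of airway basal cells, was at 552 rpkM in HBE LIEA, 407 in HBE Smart-seq2 and 1.88 in A549 LIEA. The basal markers as a list (6 genes) summed to 660.2 rpkM, 475 rpkM and 10.9 rpkM in the same order, with 0, 0 and 3 of them not listed. Of 9 alveolar type 2 markers, 5 were not listed in HBE LIEA, 5 in A549 LIEA and 4 in HBE Smart-seq2. SFTPC, SFTPA1 and SFTPA2 were listed in no library. SLC34A2 was also missing from both LIEA libraries, NAPSA from both HBE libraries, and NKX2-1, the lung lineage factor, from A549. The summed level of these 9 genes was 4.05 rpkM in HBE LIEA, 16.5 in A549 LIEA and 2.04 in Smart-seq2. ABCA3 alone was 2.39, 13.9 and 0.337 rpkM of these sums, and only ABCA3 and SFTPB reached 10 reads in any library. Of 5 club cell markers, 4 were not listed in HBE LIEA, 4 in A549 LIEA and 2 in Smart-seq2, with summed levels of 23.0, 0.396 and 4.80 rpkM. The 23.0 rpkM of HBE LIEA is BPIFA1 alone, which also stands in the goblet cell list used further on. The 6 goblet cell markers summed to 4.74, 369 and 8.35 rpkM in HBE LIEA, A549 LIEA and Smart-seq2, with 3, 2 and 3 not listed. Of these sums, AGR2 alone was 1.104, 263.5 and 4.65 rpkM, and MUC5B itself was 1.48, 66.7 and 0.357.

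Of the 10 genes, MUC5B and MUC4 carried the 2 largest differences between the lines, so the repeats that take up much of their transcripts are shown first. The sequences are from the GRCh37 transcripts of GENCODE, the build that the labels name as hg19, and are given 5′ to 3′ on the strand of the gene. The most frequent stretch of 48 bases in MUC4 has 14 exact copies, and 104 copies with at most 6 mismatches. Its first copy lies at chr3:195514906-195514953, in coding exon 2 of MUC4 on the minus strand. The most frequent stretch of 87 bases in MUC5B has 5 exact copies, the first at chr11:1264419-1264505 in coding exon 31 on the plus strand.
MUC4 repeat: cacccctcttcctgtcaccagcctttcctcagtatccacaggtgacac
MUC5B repeat: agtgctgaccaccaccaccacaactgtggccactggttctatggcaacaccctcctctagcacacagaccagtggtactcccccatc
Windows of 42 bases, the length above which Ion Torrent reads were kept, were compared to learn where a read could be placed. In MUC4, 34.4% of the windows occur more than once within the transcript and 0% in transcripts of other genes. In MUC5B, 31.8% occur more than once within the transcript, and 2.07% also occur in other genes, nearly all of these in the antisense gene MUC5B-AS1. In MUC16, 1.65% of the windows are repeated and 0% are shared. By exact matches to these transcripts, the repeated windows of MUC4, MUC5B and MUC16 thus lay mostly or wholly within their own gene. The study mapped reads with errors allowed, and the longest coding MUC5AC transcript in this annotation has 1917 nt. Whether reads of MUC5B and MUC5AC were separated can therefore not be told from this search. MUC20 differs from MUC4, MUC5B and MUC16, since 77.7% of its windows also occur in other genes, mainly in its copy MUC20P1. Reads of MUC20 and MUC20P1 may not have been separated, and the values of MUC20 are uncertain. By the same search, 14.4% of the windows of SCGB1A1, 3.94% of those of SFTPB and 3.38% of those of SFTPD also occur in other genes. Part of the few reads of these 3 genes may therefore be shared.

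The start of MUC4 is shown because its level differed most between the lines among these genes. The 250 bases before the start, from RefSeq on GRCh38.p14 at chr3:195811930-195812179 (minus strand), are given 5′ to 3′. Capitals mark the motifs found on either strand.
MUC4 start: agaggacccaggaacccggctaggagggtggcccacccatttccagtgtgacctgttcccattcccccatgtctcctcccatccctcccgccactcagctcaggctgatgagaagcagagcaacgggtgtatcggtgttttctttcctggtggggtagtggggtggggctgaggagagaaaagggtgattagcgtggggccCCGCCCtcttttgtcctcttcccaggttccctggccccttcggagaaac
The window has a GC content of 60.4% and holds 1 GC box (GGGCGG), which 42.3% of 27305 RefSeq windows of this length hold. The TATA box (TATAAA, in 11.1% of the windows), an E box (CAGCTG, in 13.8%), a forkhead motif (TGTTTAC, in 2.98%) and the CAAT box (CCAAT, in 33.04%) were also searched and are not in it. RefSeq windows of this kind were found for 5 of the 10 genes, and MUC5B was not among them.

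MUC5B, the gel-forming mucin of airway glands, was at 66.7 rpkM in A549 LIEA (64.9 to 68.6, 4964 reads). It was at 1.48 rpkM in HBE LIEA (1.23 to 1.77, 122 reads) and at 0.357 in HBE Smart-seq2 (0.274 to 0.457, 63 reads). A549 was thus far above both HBE libraries, and the intervals did not overlap. In A549, MUC5B was above 92.1% of the genes with at least 10 reads, while in HBE LIEA it was above 8.84% and in Smart-seq2 above 2.93%. The ratio of A549 to HBE by LIEA was 45.1-fold (37.7 to 54.4), a log2 ratio of 5.50. Of 13602 genes compared, with those not listed in 1 library set to 3 reads, 212 had a higher ratio. MUC5B runs from 1244296 to 1283402 on chromosome 11 (GRCh37), and its exons overlap those of MUC5B-AS1 on the other strand. Whether reads were counted by strand is not given in the sources used here.

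MUC5AC, the other gel-forming mucin of the airway surface, lies beside MUC5B at chr11:1151580-1222364 and is listed in no library. Whether the reference of the authors held MUC5AC is not given in the sources used here, so its missing value is no measure of its level. The further mucins of this cluster differed from MUC5B. MUC2, the gel-forming mucin of the intestine, had 208 reads in HBE LIEA, 25 in A549 LIEA and 47 in HBE Smart-seq2, or 5.24, 0.698 and 0.554 rpkM. MUC6, a mucin of gastric glands, had 37, 17 and 0 reads. MUC2 was thus lower in A549 than in HBE by LIEA, at a log2 ratio of -2.91, where MUC5B in the same cluster was higher.

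MUC4, a transmembrane mucin that can bind ERBB2, was at 21.4 rpkM in HBE LIEA (20.4 to 22.4, 1655 reads). It was at 1.85 rpkM in HBE Smart-seq2 (1.65 to 2.07, 306 reads) and at 0.0143 in A549 LIEA, which is a single read. Both HBE libraries held MUC4, and A549 was close to without it. The level in A549 was 1493-fold lower than in HBE by LIEA, with a counting interval from 268 to 58992-fold that reflects the 1 read. The log2 ratio was -10.54 (-15.85 to -8.06), and its size is uncertain because of that read. MUC4 runs from 195473636 to 195538844 on chromosome 3 (GRCh37, minus strand), with MUC20 next to it at 195447755 to 195467994.

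MUC20, a small transmembrane mucin, was at 2.18 rpkM in HBE LIEA (26 reads), 3.34 in A549 LIEA (36 reads) and 1.999 in HBE Smart-seq2 (51 reads). The 3 intervals overlapped, from 1.42 to 3.19, from 2.34 to 4.63 and from 1.49 to 2.63 rpkM. The log2 ratio of A549 to HBE was 0.62 (-0.15 to 1.40), so a difference was not detectable at this depth, and the sharing of its sequence with MUC20P1 applies to each of these values.

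MUC16, the very large transmembrane mucin known as the CA125 antigen, was at 1.70 rpkM in HBE LIEA (1.53 to 1.90, 344 reads). It was at 0.802 rpkM in A549 LIEA (0.677 to 0.943, 146 reads) and at 3.03 in HBE Smart-seq2 (2.86 to 3.19, 1305 reads). The 3 intervals did not overlap, and A549 was lowest. The log2 ratio of A549 to HBE by LIEA was -1.09 (-1.38 to -0.80). The median log2 ratio of genes with at least 100 reads in both LIEA libraries was -0.17. Relative to this median, MUC16 was at -0.92, which is no longer past 2-fold.

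MUC1, the transmembrane mucin of most simple epithelia, was at 7.68 rpkM in HBE LIEA (5.93 to 9.79, 65 reads), 4.45 in A549 LIEA (3.08 to 6.22, 34 reads) and 0.387 in HBE Smart-seq2 (0.156 to 0.797, 7 reads). The LIEA libraries were both far above Smart-seq2. The log2 ratio of A549 to HBE by LIEA was -0.79 (-1.43 to -0.17), within 2-fold.

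**Figure D1:**
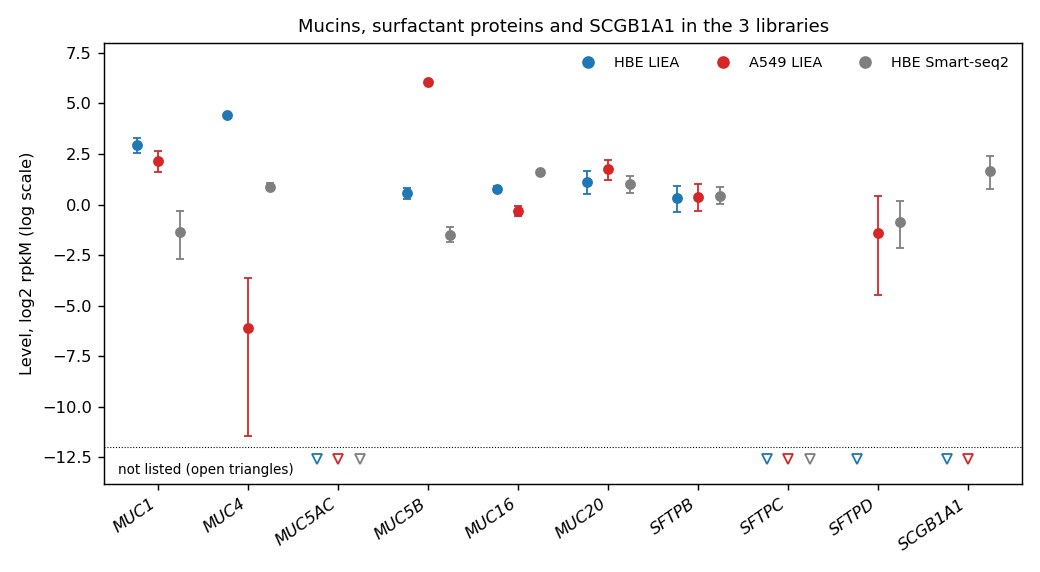
Level of each gene in log2 rpkM (log scale) in HBE LIEA, A549 LIEA and HBE Smart-seq2, with 95% exact Poisson intervals from the recovered reads as bars and genes that are not listed as open triangles. MUC5B is highest in A549 at 66.7 rpkM, MUC4 is highest in HBE LIEA at 21.4 rpkM and rests on 1 read in A549, and SFTPB lies between 1.24 and 1.36 rpkM in the 3 libraries.

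Surfactant protein B (SFTPB), which organises the surfactant film and is needed for breathing at birth, was at 1.24 rpkM in HBE LIEA (0.770 to 1.90, 21 reads). It was at 1.31 rpkM in A549 LIEA (0.802 to 2.03, 20 reads) and at 1.36 in HBE Smart-seq2 (1.004 to 1.79, 49 reads). The 3 intervals overlapped, and a difference between the alveolar and the bronchial line was not detectable at this depth. The log2 ratio of A549 to HBE was 0.08 (-0.88 to 1.03). This interval leaves room for a difference of up to about 2.05-fold. SFTPB was low in each library, above 7.81% of the genes with at least 10 reads in A549, 6.96% in HBE LIEA and 18.0% in HBE Smart-seq2.

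SFTPC, the surfactant protein that is the closest marker of alveolar type 2 cells, is listed in no library. SFTPD had 2 reads in A549 LIEA and 7 in HBE Smart-seq2, or 0.375 and 0.554 rpkM, and is not listed in HBE LIEA. With both LIEA libraries under 3 reads, no ratio between the lines is given. SFTPA1 and SFTPA2, which are near-identical copies of each other, are listed in no library.

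SCGB1A1 is listed in HBE Smart-seq2 alone, at 3.15 rpkM (1.72 to 5.28). The recovered number is 14 reads on a transcript of 452 nt, near the 443 nt of the annotated one. The value also allows 7 reads on a shorter transcript. With HBE LIEA set to 3 reads, SCGB1A1 was 2.18-fold lower there than in Smart-seq2, or 1.09-fold lower with 7 reads in Smart-seq2. Of 9 secretoglobin genes, SCGB1A1 was the single one listed in any library.

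Between the lines, 6 of the 10 genes had at least 10 reads in 1 of the LIEA libraries. Of these, 3 were past 2-fold: MUC5B higher in A549, and MUC4 and MUC16 lower. Among all 13602 genes compared in the same way, 41.2% were past 2-fold, 20.3% higher in A549 and 20.9% lower, so 3 of 6 genes is near this background. MUC1, MUC20 and SFTPB were within 2-fold. At a 4-fold limit, MUC5B and MUC4 remained, against 18.9% of all genes.

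**Figure D2:**
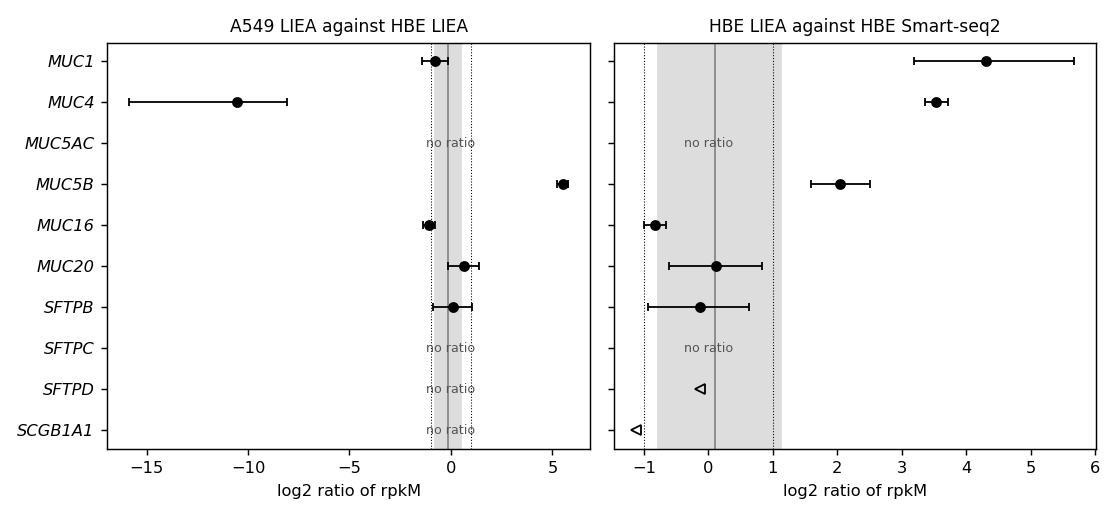
Log2 ratio of rpkM for A549 against HBE by LIEA (left) and for LIEA against Smart-seq2 in HBE (right), with 95% exact binomial intervals as bars and bounds from the limit of 3 reads as open triangles; dotted lines mark 2-fold, and the grey band and line give the quartiles and the median of genes with at least 10 reads in both libraries. MUC5B at 5.50 and MUC4 at -10.54 lie farthest from the band on the left, where MUC1, MUC16 and MUC20 lie just outside it, and MUC1, MUC4 and MUC5B, from 2.05 to 4.31, lie farthest on the right, where MUC16 and SCGB1A1 lie just below it.

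The mucin with the largest share of the mucin level was a different one in each library. Over 17 mucin genes (MUC1 to MUC22), where genes that are not listed, MUC5AC among them, add 0, the levels summed to 41.3 rpkM in HBE LIEA, 91.8 in A549 LIEA and 8.598 in HBE Smart-seq2. MUC5B was 72.7% of this sum in A549, followed by MUC13 with 13.9%. MUC4 was 51.8% of the sum in HBE LIEA, followed by MUC1 with 18.6% and MUC2 with 12.7%. In HBE Smart-seq2, MUC16 was 35.2%, MUC20 23.3% and MUC4 21.5%. In Smart-seq2 the order of MUC20 and MUC4 was within counting error, with intervals from 1.49 to 2.63 and from 1.65 to 2.07 rpkM.

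**Figure D3:**
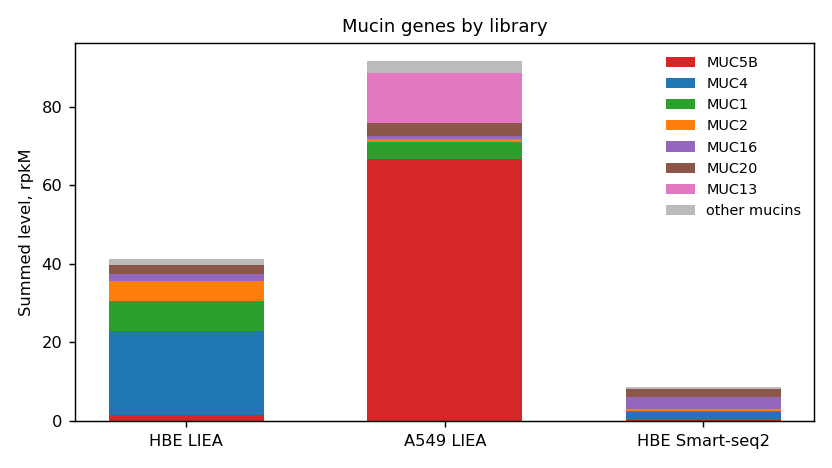
Summed level of 17 mucin genes in rpkM for each library, with 7 genes in colours and the others in grey. MUC5B makes up 72.7% of the bar of A549 LIEA, MUC4 51.8% of that of HBE LIEA, and the bar of HBE Smart-seq2 reaches 8.598 rpkM.

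The other transmembrane mucins were few in HBE. MUC13, a mucin of intestinal epithelium, had 152 reads in A549 LIEA (12.7 rpkM) and is not listed in either HBE library. Its value also allows 38 reads on a shorter transcript. With 152 reads, and HBE LIEA set to 3 reads, it was 56.2-fold higher in A549 than in HBE by LIEA. MUC3A and MUC12, neighbours on chromosome 7, had 45 and 32 reads in A549, against 0 and 1 in HBE LIEA and 0 and 8 in Smart-seq2. Of 11 transmembrane mucins, 7 had at least 10 reads in a LIEA library, with 3 past 2-fold higher in A549, 2 lower and 2 within. Over all genes compared, 20.3% were higher and 20.9% lower. Only MUC1, MUC16 and MUC20 had at least 10 reads in both libraries. MUC13, MUC3A and MUC12, the higher ones, passed the minimum through A549 alone and MUC4 through HBE alone, so the count is a description only. Of 7 secreted mucins, 4 could be compared, with MUC5B higher, MUC2 and MUC19 lower and MUC6 within 2-fold. MUC19 had 17 reads in HBE LIEA and is not listed in A549, so it passed the minimum through HBE alone.

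Genes that make or fill the granules of goblet cells, the mucus-secreting cells of the airway, were compared as lists. Of 13 genes of the goblet cell programme, 8 could be compared between the lines. Of these, 6 were past 2-fold higher in A549, 1 was lower and 1 was within, where 20.3% of all genes were past 2-fold higher. With genes that are not listed in 1 library at 3 reads, their median log2 ratio was 2.50, against -0.13 over all genes compared. Only SPDEF and BPIFB1 had at least 10 reads in both libraries. The other 5 of the 6 higher genes passed the minimum through A549 alone, so they had to be higher there, and the count and the median are a description only. FOXA3 with 11 reads and CREB3L1 with 18 are among these 5. Their values also allow 1 and 9 reads on shorter transcripts, which is under the minimum. AGR2, a disulfide isomerase needed to fold mucins, was at 263.5 rpkM in A549 (1076 reads), 1.104 in HBE LIEA (5 reads) and 4.65 in HBE Smart-seq2 (45 reads). FCGBP, a mucus-associated protein, had 2413 reads in A549 (35.4 rpkM) and is not listed in HBE. With HBE LIEA set to 3 reads, the ratio was 892-fold. SPDEF, a transcription factor of goblet cells, was at 34.2 rpkM in A549, 2.16 in HBE LIEA and 3.34 in Smart-seq2. TFF3 and CLCA1, which are also goblet cell products, are listed in no library. BPIFA1, a secreted protein of the upper airway, went the other way, with 114 reads in HBE LIEA, 17 in Smart-seq2 and 0 in A549. With HBE as the reference, MUC5B and SPDEF, each with at least 10 reads in both LIEA libraries, were higher in A549. BPIFB1 was within 2-fold, and the summed level of the basal markers was lower in A549. The part of the basal markers in this result was not tested.

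The enzymes that attach O-linked sugars to mucins differed gene by gene. Of 17 GALNT enzymes, which add the first sugar, 13 could be compared, at a median log2 ratio of 0.00456. Of these, 5 were past 2-fold higher in A549, 4 lower and 4 within, against 20.3% higher and 20.9% lower over all genes. Only 9 had at least 10 reads in both libraries, and the others passed the minimum through 1 library alone. GALNT3 had 226 reads in HBE LIEA, 1260 in Smart-seq2 and 1 in A549. GALNT14 had 86 reads in A549, or 43 on a shorter transcript, and is not listed in HBE. GALNT4, whose exon is also part of the POC1B-GALNT4 read-through so that its reads are uncertain, had 51 reads in A549, 2 in HBE LIEA and 2 in Smart-seq2. The highest member was GALNT2 in HBE LIEA (44.6 rpkM), GALNT10 in A549 (53.2 rpkM) and GALNT3 in Smart-seq2 (39.2 rpkM).

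Of 13 genes of sugar extension, 12 could be compared, with 2 higher in A549, 4 lower and 6 within, at a median of -0.37. Among all genes compared, 20.3% were past 2-fold higher and 20.9% lower. GCNT3, the branching enzyme of mucin-type core 2 and core 4 sugars, was at 107 rpkM in A549 (992 reads), 3.03 in HBE LIEA and 1.97 in Smart-seq2. GCNT1, another core 2 enzyme, had 5 reads in A549 and 90 in HBE LIEA. FUT3, the Lewis fucosyltransferase, had 5 reads in A549, 268 in HBE LIEA and 290 in Smart-seq2. GCNT3 was 35.5-fold higher and FUT3 48.3-fold lower in A549 than in HBE by LIEA. FUT3 has closely related neighbours in the genome, and its reads may be shared with them.

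Of 14 genes of granule release, 13 could be compared between the lines. Of these, 2 were past 2-fold higher in A549, 3 were lower and 8 were within, near the background of 41.2% past 2-fold. UNC13D, which primes secretory granules, was 5.16-fold lower in A549, DNAJC5 2.76-fold lower and STX2, a syntaxin, 6.70-fold higher. VAMP8, the granule SNARE of airway secretory cells, was the highest member in each library, at 67.7, 34.4 and 152 rpkM in HBE LIEA, A549 LIEA and Smart-seq2.

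Among 9 partners and sheddases of transmembrane mucins, 6 were within 2-fold between the lines, 1 was higher in A549 and 2 were lower. Past 2-fold were 41.2% of all genes. MSLN, mesothelin, the binding partner of MUC16, had 305 reads in HBE LIEA (30.5 rpkM), 978 in Smart-seq2 (45.8 rpkM) and 2 in A549. MMP14, a membrane protease that can shed MUC1, had 688 reads in HBE LIEA, 170 in Smart-seq2 and 9 in A549. ADAM9 was 4.01-fold higher in A549. ERBB2, the receptor that binds MUC4, was at 42.8 rpkM in HBE LIEA and 42.2 in A549 LIEA.

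**Figure D4:**
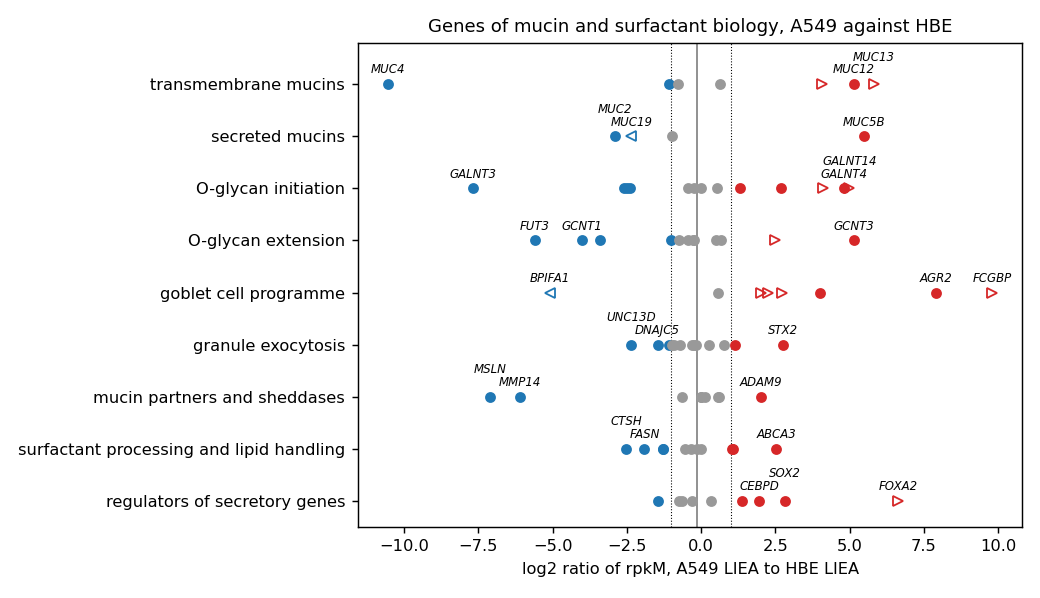
Log2 ratio of rpkM of A549 against HBE by LIEA for genes of 9 lists, with at least 10 reads in 1 of the libraries; red points are past 2-fold higher, blue past 2-fold lower, open triangles are bounds from the limit of 3 reads, and the grey line is the median of all genes. In the goblet cell programme 6 of 8 genes lie past 2-fold to the right, with FCGBP at 9.80 and AGR2 at 7.90.

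The genes of surfactant processing and lipid handling did not share a direction. Of 14 genes, 11 could be compared, with 3 higher in A549, 4 lower and 4 within 2-fold, at a median of -0.33. The shares over all genes were 20.3% higher and 20.9% lower. ABCA3, the lipid transporter of the lamellar body, was at 13.9 rpkM in A549 (382 reads), 2.39 in HBE LIEA (73 reads) and 0.337 in Smart-seq2 (22 reads). CTSH, a protease that processes surfactant protein B, was at 13.9 rpkM in A549 and 80.4 in HBE LIEA. NAPSA, the other processing protease, had 7 reads in A549 and is not listed in HBE. FASN was the highest member in HBE LIEA (375 rpkM), SCD in A549 (319 rpkM) and PRDX6 in Smart-seq2 (462 rpkM).

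Of 10 regulators of secretory genes, 9 could be compared, with 4 higher in A549, 1 lower and 4 within. The shares over all genes were 20.3% higher and 20.9% lower. Only 7 had at least 10 reads in both libraries. FOXA2 and SOX2 passed the minimum through A549 alone, so the count is a description only. FOXA2, a factor of airway and alveolar differentiation, had 267 reads in A549 and is not listed in HBE. With HBE LIEA set to 3 reads, its ratio was 98.7-fold. SOX2 had 19 reads in A549 and 3 in HBE LIEA, and CEBPD was 3.85-fold higher in A549. NKX2-1, the factor that drives surfactant genes, had 1 read in HBE LIEA and 4 in Smart-seq2.

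Several of these genes also differed between the library methods. Between LIEA and Smart-seq2 of the same HBE line, 7 of the 10 genes had at least 10 reads in 1 library. Of these, MUC1, MUC4 and MUC5B were past 2-fold higher in LIEA and SCGB1A1 was past 2-fold lower, which makes 4. Of 13511 genes compared in the same way, 50.6% were past 2-fold, 28.4% higher in LIEA and 22.2% lower, so that the share of these genes is near the background. MUC1 was 19.8-fold higher in LIEA (9.11 to 51.3), MUC4 was 11.6-fold higher (10.2 to 13.1) and MUC5B was 4.14-fold higher (3.03 to 5.70). MUC16 was lower in LIEA, at a log2 ratio of -0.83 (-1.003 to -0.66). MUC20 was at 0.12 (-0.62 to 0.83) and SFTPB at -0.13 (-0.94 to 0.64), and neither differed beyond counting error.

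Further mucins were also higher in LIEA. MUC2 was 9.46-fold higher and MUC19 9.08-fold higher (17 reads against 4), while MUC6 had 37 reads in LIEA and is not listed in Smart-seq2, at least 26.4-fold apart. Of the 5 secreted mucins compared, 4 were past 2-fold higher in LIEA and 1 lower, where 28.4% of all genes were higher. Only MUC2 and MUC5B had at least 10 reads in both libraries, while MUC6 and MUC19 passed the minimum through LIEA alone and OVGP1, the lower one, through Smart-seq2 alone, so the count is a description only.

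GC content and length moved with this ratio over all genes, in a comparison added after the data were seen. The median log2 ratio of LIEA to Smart-seq2 was -0.70 for genes under 40% GC, 0.49 from 50 to 60% and 1.08 from 60%. It was -0.43 for transcripts under 2000 nt and 1.02 from 8000 nt. MUC5B has a GC content of 64.5% and 17916 nt, MUC4 57.4% and 16804 nt, and MUC1 58.6% and 1838 nt. MUC16, with 50.3% GC and 43816 nt, is the longest of them and was lower in LIEA. MUC20 has 60.9% GC, SFTPB 53.3% and SCGB1A1 54.4%. MUC1 and MUC4 were above the upper quartile of their GC class, which is at 1.59, and MUC5B was within the quartiles of its class, from -0.08 to 2.60. The part of GC content and length in these ratios was not tested.

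**Figure D5:**
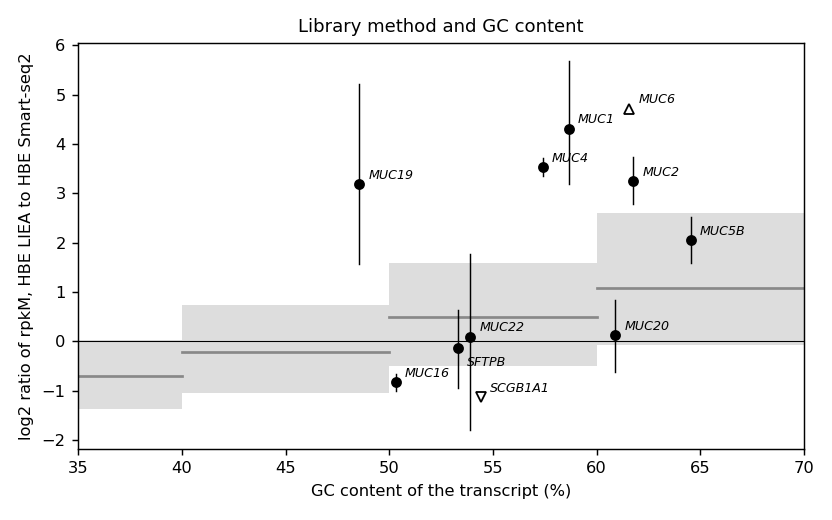
Log2 ratio of rpkM of LIEA to Smart-seq2 in HBE against the GC content of the transcript (%) for mucins, SFTPB and SCGB1A1, with 95% exact binomial intervals as lines and bounds as open triangles; grey lines and bands give the median and quartiles of all genes in 4 GC classes. The GC content of MUC2 comes from an annotated transcript of 4209 nt, shorter than the 8622 nt behind its rpkM. MUC1 and MUC4 lie above the band at 4.31 and 3.53, MUC5B within it at 2.05, and MUC16 at -0.83.

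The order of the genes within HBE therefore depended on the library. By rpkM, the order in LIEA was MUC4, MUC1, MUC20, MUC16, MUC5B and SFTPB. In Smart-seq2 it was SCGB1A1, MUC16, MUC20, MUC4, SFTPB, SFTPD, MUC1 and MUC5B. In LIEA, the intervals of MUC20, MUC16, MUC5B and SFTPB overlapped each neighbour, and those of MUC4 and MUC1 overlapped no other. In Smart-seq2, the intervals of neighbours overlapped all along this order except those of MUC16 and MUC20. In A549 the order was MUC5B, MUC1, MUC20, SFTPB, MUC16, SFTPD and MUC4, where the intervals of MUC5B and MUC1 and those of MUC20 and SFTPB were apart and those of the other neighbours overlapped.

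Profiles over the 3 libraries were compared by the distance between log2 rpkM values, each centred on its mean. The set was the 10921 genes listed in all 3 libraries with at least 100 reads summed over them. A gene missing from any library, such as FCGBP or FOXA2, could therefore not appear as a neighbour. With 3 libraries, profiles can be told apart only roughly. Within this set, the profile of MUC4 was the least common among the members compared. Its nearest gene was ST14, a membrane serine protease of epithelia, at a distance of 0.917, followed by FAT2 at 1.18 and CD74 at 1.32. ST14 had 2282 reads in HBE LIEA, 920 in Smart-seq2 and 3 in A549. With 1 read of MUC4, 1 of CD74 and 3 of FAT2 in A549, these distances are uncertain. Nearest to MUC5B were KIF12 at 0.145, CNTN1 at 0.316 and MMP24 at 0.405, of which CNTN1 had 1826 reads in A549 and 44 in HBE LIEA. In HBE LIEA and Smart-seq2, KIF12 rests on 4 and 2 reads and MMP24 on 22 and 16, so their distances are uncertain as well. Nearest to MUC1 were LLGL1, FAM129B and LIMK1, within 0.0935. The profiles of MUC16 and MUC20 were common ones, with 243 and 242 genes within a distance of 0.25, led by IMPACT and FBXL19-AS1.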

How the data were processed

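The members and gene lists were chosen with earlier results of these data known. Per the labels and the methods of the study, the authors filtered Ion Torrent reads by quality and a length above 42 nt, aligned all reads by FANSe2 against RefSeq-RNA (build hg19), merged splice variants and deposited log2 rpkM per gene, with no pseudocount. Blank rows and, in each library, 4 rows with repeated date-like names were left out.

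Reads were recovered from the log2 values: the totals are the largest whole numbers at which transcript lengths come out whole, and the common factor of reads and length (up to 12) was chosen by GENCODE release 44 transcript lengths on GRCh37. Whole reads were found for 18854 of 18856 genes, within the rounding of the deposited values. Recovered reads sum to 98.2 to 98.7% of the totals. On simulated data of 3 libraries all 3 totals were recovered, and exact reads for 95.0% of 3000 genes. The simulated lengths were those already recovered by the same rule, so this share cannot show whether the chosen common factors are right.

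A gene was compared with at least 10 reads in 1 of the 2 libraries. A log2 ratio of at least 1 in size counted as past 2-fold, and a gene that is not listed was set to 3 reads. Because the deposited values are log2 rpkM from single libraries, no test was run. Named genes: the 10 members and, of each list, the 3 largest log2 ratios per comparison and the highest rpkM per library. Sequence and GC content came from GENCODE transcripts nearest in length. BPIFB1, CLCA1, CREB3L1, FOXA3, KRT5, MUC3A, NAPSA, NKX2-1, OVGP1, SLC34A2 and TFF3 were named after their values were seen. Software: scipy 1.17.1 and numpy 2.4.6 for intervals, pandas 2.3.3 for tables, matplotlib 3.10.9 for plots, all under Python 3.11.15.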

Additional observations from a re-analysis of the deposited data

How the results depend on the processing

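No paired analysis was possible because there was a single library of each kind, so leaving out a replicate could not be done either. Of 83 values computed under an alternative, 73 stayed within 1.5 times the main count or within the 95% counting interval, 10 moved and 0 past 2-fold changed sign. Under TPM scaling, values near 0 changed sign: SFTPB was at -0.08 between the lines, and SFTPB and the bound of SFTPD were at 0.07 between the methods. The count of genes past 2-fold was 2 to 3 between the lines and 3 to 4 between the methods. Calls near the limit were lost. MUC16 (A549 to HBE) was at -0.92 with median scaling and at -0.59 on log2(rpkM + 1). SCGB1A1 (LIEA to Smart-seq2) was at -0.93 with TPM scaling, and with the smallest whole reads it had 7 reads, under the minimum of 10. MUC5B (LIEA to Smart-seq2) was at 0.87 on log2(rpkM + 1), which understates changes of low genes. On that scale MUC5B and MUC4 between the lines were at 4.77 and -4.46. The median scaling used genes with at least 100 reads in both libraries, whose median was -0.17 between the lines and 0.12 between the methods. Depth limits SFTPB, SFTPD, SCGB1A1 and MUC20 most, with 51 reads or fewer each.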

Other observations

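Between LIEA and Smart-seq2 of HBE, where 50.6% of all genes were past 2-fold, the further lists gave the following values. CEBPB, a transcription factor of secretory epithelium, had 1859 reads in LIEA and 23 in Smart-seq2, or 191 and 1.11 rpkM. CEBPA was 8.38-fold and FOXA1 6.68-fold higher in LIEA. Of 7 regulators compared, 3 were past 2-fold higher in LIEA and 0 lower, where 28.4% of all genes were higher, with a median log2 ratio of 0.95, against 0.04 over all genes compared. KLF5, the highest regulator in Smart-seq2 at 75.5 rpkM, was at 38.7 in LIEA.

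Of 13 genes of granule release, 2 were past 2-fold higher in LIEA, 3 lower and 8 within, no larger a share than among all genes. SNAP23, a SNARE of granule fusion, was 5.51-fold and STXBP3 3.91-fold lower in LIEA, and UNC13B was 5.46-fold higher. Of 10 GALNT enzymes, 5 were higher in LIEA, 2 lower and 3 within, led by GALNT10 with 225 reads against 48, GALNT5 with 24 against 265 and GALNT6 with 468 against 261. Of 10 extension genes, 1 was higher (ST6GALNAC4, 2.16-fold), 1 lower (C1GALT1C1, 2.79-fold) and 8 within. BPIFA1 was 14.3-fold higher and AGR2 4.21-fold lower in LIEA. Among 9 mucin partners, MMP14 was 8.65-fold and ERBB2 4.37-fold higher and LGALS3 2.37-fold lower. Of 11 genes of surfactant processing and lipid handling, 5 were higher, 3 lower and 3 within, led by FASN (17.7-fold), ATP11A (7.56-fold) and ABCA3 (7.09-fold), all higher in LIEA.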
